A study of Homo sapiens with 7 samples.

Results

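DDX6 and 9 proteins of its decapping network were followed at the RNA level in HCT116 cells given miR-148a-3p or a control miRNA. The 10 genes were taken by symbol from a list (DDX6, EIF4ENIF1, LSM14A, LSM14B, PATL1, DCP1A, DCP2, EDC3, EDC4 and XRN1), out of 15659 gene symbols with a read in any mRNA library. All 10 passed the filter on low counts, which kept 8921 genes. HCT116 is a human colorectal carcinoma line. Both groups carried a DROSHA knockout, which removes the nuclear enzyme that releases microRNA precursors, and both were harvested 48 h after transfection, and by their labels they differed in the transfected RNA, a control miRNA (3 libraries) or miR-148a-3p (3 libraries). The labels give neither the sequence of the control miRNA nor whether the knockout line is a single clone. The title of the series ties miR-148a-3p and DDX6 to myeloid leukemia cells. It does not say whether DDX6 was of interest before these data were seen.

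DDX6 is a DEAD-box RNA helicase of the cytoplasm and a core component of P-bodies, the granules in which repressed messenger RNAs gather. The CCR4-NOT deadenylase, which Argonaute and its GW182 partner proteins bring to a microRNA target, binds DDX6 and activates it. DDX6 in turn joins either proteins that hold back translation, such as 4E-T and the LSM14 proteins, or activators of the decapping enzyme DCP2, such as PAT1, EDC3 and EDC4. Once DCP2 has removed the 5′ cap, the exonuclease XRN1 degrades the message from its 5′ end.

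The transfected microRNA and its close relatives are shown because the bases that choose targets are the same in all of them. Capitals mark the seed, bases 2 to 8 from the 5′ end, and the sequences are the RefSeq mature forms of GRCh38.p14.
miR-148a-3p: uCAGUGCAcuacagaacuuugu
miR-148b-3p: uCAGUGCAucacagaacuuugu
miR-152-3p: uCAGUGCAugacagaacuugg
They come from chr7:25949922-25949943 (minus strand, MIR148A), chr12:54337278-54337299 (plus strand, MIR148B) and chr17:48037174-48037194 (minus strand, MIR152). The shared seed pairs with UGCACUG in a message. Between miR-148a-3p and miR-148b-3p the substitutions are C9U and U10C, counted from the 5′ end and outside the seed. In the single small RNA library of wild-type HCT116 cells, miR-148a-3p gave 253510 counts, miR-148b-3p 7365 and miR-152-3p 189, so wild-type cells of this line carry the seed themselves. The messages of the 10 genes were not searched for the seed match, because their sequences were not used here.

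The mRNA libraries held 630142 to 1564125 reads each, and the 10 genes together 330 to 765 of them, between 0.0489% and 0.0704%. Libraries were primed on poly(A) tails, so a message gives reads near its 3′ end whatever its length. Levels of different genes were therefore set side by side without a length term. How reads were counted is not given, so an order of genes by level is one of counted reads. Levels are given in CPM, the usual scale of read counts relative to library size, after TMM scaling between libraries. On the first principal component (29.8% of the variance), control replicate 1 (-31.4) and miR-148a-3p replicate 3 (34.2) lay at opposite ends and the other libraries between -8.29 and 13.1. Colon epithelial markers summed to 1022 to 2739 reads a library, with 7 of 10 detected and KRT20, CDX1 and CEACAM5 at 0. Most of these reads were of the keratins KRT18 (6408 over the 6 libraries), KRT19 (2709) and KRT8 (833). VIL1 gave only 3 reads over the 6 libraries. Blood markers summed to 1 to 11 reads, from CD33 and ITGAM, with PTPRC, SPI1, MPO, CD14, LYZ, HBB and CD3E at 0. Stromal markers summed to 28 to 85 reads, mostly of COL1A1, which gave 27 to 83 reads a library. DROSHA itself gave 13 to 31 reads a library in both groups, and reads near the 3′ end do not check the knockout.

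With miR-148a-3p, 9 of the 10 genes had a lower fitted level, and DDX6 was at 0.596 of control. Its log2 value was the lowest of the 10, close to that of EDC4 (-0.75 and -0.71), and remained the lowest in 8 of 14 alternatives, with EDC3 lowest in 4 and EDC4 in 2. The median log2 fold change of the 10 was -0.37, beside -0.0039 over all 8921 genes, of which 50.5% were lower. The 10 genes were chosen with earlier results of these data known, so setting them beside all genes is a description only. No member passed the edgeR quasi-likelihood test at a Benjamini-Hochberg adjusted p below 0.05 over all genes, and DESeq2 and limma-voom also called 0. In that comparison 1 of 8921 genes passed, 0.0112%, and it is not a member. At an unadjusted p below 0.05, DDX6 and EDC4 were lower with edgeR, where 3.4% of all genes were lower by that measure. limma-voom gave the same 2 members and DESeq2 gave DDX6 alone. The same 2 genes had every miR-148a-3p library below every control library, 2 of 10 against 6.59% of all genes. Without control replicate 1 the count of lower members was 7 of 10 with a median of -0.39, and without miR-148a-3p replicate 3 it was 9 of 10 with a median of -0.26. Leaving out miR-148a-3p replicate 1 also gave 7 of 10, control replicate 2 or miR-148a-3p replicate 2 gave 8 of 10, and control replicate 3 gave 9 of 10.

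**Figure D1:**
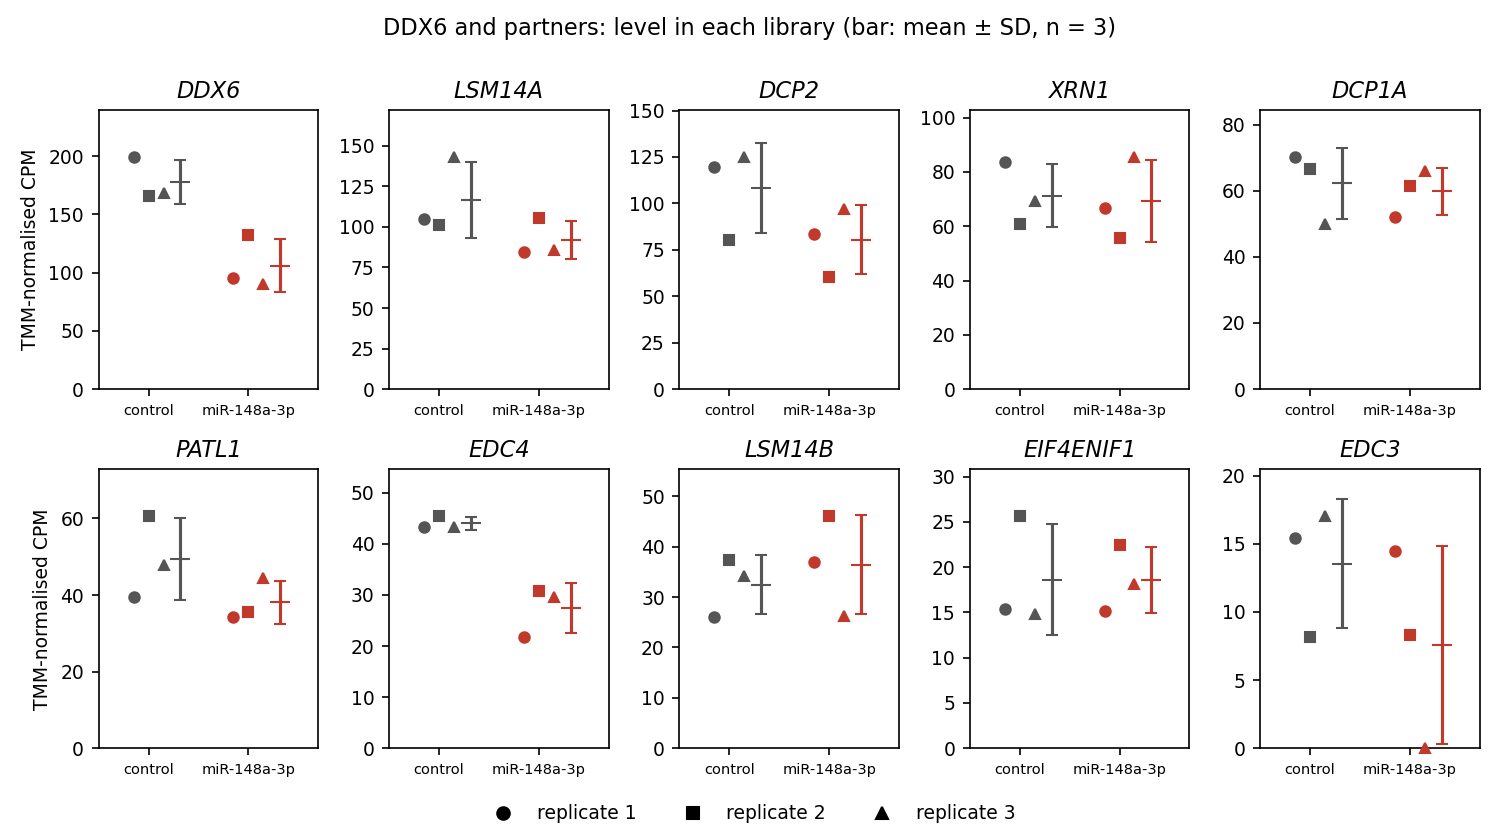
Level of each gene in TMM-normalised CPM (linear axis from 0, a separate scale for each gene) in the 3 control miRNA libraries (grey) and the 3 miR-148a-3p libraries (red), with the mean ± SD beside the points. The groups do not overlap for DDX6 and EDC4 and overlap for the other 8 genes.

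DDX6 (chromosome 11, 118747763 to 118791744, GRCh38.p14) was counted at 199, 166 and 168 CPM in control replicates 1, 2 and 3, from 207, 142 and 148 reads. With miR-148a-3p it was at 94.9, 133 and 90.6 CPM, from 144, 112 and 55 reads. Replicate 2 of the miR-148a-3p group lay nearest to the controls, and the highest treated library was still below the lowest control. The group means were 178 ± 18.7 and 106 ± 23.1 CPM (SD, n = 3). The log2 fold change was -0.75 (SE 0.21, 95% interval -1.18 to -0.32), a level between 0.441 and 0.804 of control, with edgeR adjusted p = 0.322. In bulk RNA, fewer cells with the message and less message per cell cannot be told apart. By p, DDX6 ranked 39 among the 8921 genes, and 230 genes had a log2 fold change as low or lower. The adjusted p lay between 0.168 and 0.998 over the 14 alternatives, and the log2 fold change between -0.93 and -0.66.

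Among the repressor partners, no change was detectable. LSM14A and LSM14B are paralogous RNA-binding proteins that bind the helicase through their FDF region, and EIF4ENIF1 encodes 4E-T, which ties the cap-binding protein eIF4E to DDX6. LSM14A (chromosome 19, 34172504 to 34229288) was at 105, 102 and 143 CPM in the controls and at 84.4, 105 and 85.6 CPM with miR-148a-3p. Its miR-148a-3p replicate 2 reached into the control range, and the log2 fold change was -0.35 (SE 0.23, interval -0.81 to 0.12, edgeR adjusted p = 0.788). LSM14B (chromosome 20, 62122475 to 62135374) was at 26.0, 37.3 and 34.1 CPM and then at 36.9, 46.1 and 26.3 CPM. It was the 1 member with a positive fitted value, 0.19 (SE 0.33, interval -0.48 to 0.86, edgeR adjusted p = 0.938), and its groups overlapped, with miR-148a-3p replicate 2 above every control. EIF4ENIF1 (chromosome 22, 31436963 to 31493568) was at 15.4, 25.7 and 14.8 CPM and at 15.2, 22.5 and 18.1 CPM. Its group means were nearly equal, 18.6 ± 6.11 and 18.6 ± 3.68 CPM (SD, n = 3). With 11 to 23 reads a library, its interval was wide, from -0.91 to 0.89.

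The decapping activators EDC4, PATL1 and EDC3 had lower fitted values, but of these only EDC4 had an interval below 0. DCP1A, which also stimulates DCP2, had a fitted value close to 0, at -0.08. LSM14A and DCP2 of the other classes also had lower fitted values, and differences between the classes were not tested. EDC4 (chromosome 16, 67873052 to 67884499) encodes the large scaffold that holds DCP1 and DCP2 together. It was at 43.3, 45.5 and 43.2 CPM in the controls and at 21.8, 30.8 and 29.6 CPM with miR-148a-3p. The control libraries lay close together, and all treated libraries were lower, with replicate 1 the lowest. The means were 44.0 ± 1.28 and 27.4 ± 4.91 CPM (SD, n = 3), a log2 fold change of -0.71 (SE 0.32, interval -1.36 to -0.059, edgeR adjusted p = 0.709). These levels rest on 38 to 45 reads a library in the controls and 18 to 33 with miR-148a-3p.

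PATL1 (chromosome 11, 59636716 to 59669037), the human PAT1 protein that bridges DDX6 and the LSM1 to LSM7 ring, was at 39.5, 60.7 and 47.8 CPM and at 34.3, 35.5 and 44.5 CPM. Replicates 1 and 2 of the miR-148a-3p group were below every control, replicate 3 was not, and the log2 fold change was -0.39 (SE 0.30, interval -0.999 to 0.23, edgeR adjusted p = 0.846). EDC3 (chromosome 15, 74630558 to 74696024) competes with other FDF proteins for the same face of DDX6 and was the least abundant member. It gave 16, 7 and 15 reads in the controls and 22, 7 and 0 with miR-148a-3p. The 0 in replicate 3 allows up to 4.94 CPM (3 counts, counting error only), while the other treated libraries were at 14.5 and 8.28 CPM. Its log2 fold change of -0.63 (SE 0.62, interval -1.90 to 0.64, edgeR adjusted p = 0.886) turned on single libraries, and lay at -0.21 without miR-148a-3p replicate 3 and at -1.53 without miR-148a-3p replicate 1.

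The enzymes DCP2 and XRN1, and DCP1A, showed no detectable change. DCP2 (chromosome 5, 112976798 to 113022195), the catalytic subunit that cuts the cap, was at 119, 80.5 and 125 CPM and at 83.7, 60.3 and 97.1 CPM. Control replicate 2 was low enough for the groups to overlap, and the log2 fold change was -0.44 (SE 0.24, interval -0.94 to 0.057, edgeR adjusted p = 0.738). The end of its annotated span overlaps that of MCC, which gave 49 reads in all 6 libraries against 540 for DCP2. DCP1A (chromosome 3, 53283429 to 53347543), which stimulates DCP2, was at 70.3, 66.5 and 50.1 CPM and at 52.1, 61.5 and 65.9 CPM. XRN1 (chromosome 3, 142306610 to 142448037), the 5′ to 3′ exonuclease, was at 83.8, 60.7 and 69.4 CPM and at 66.6, 55.6 and 85.6 CPM. Both had fitted values close to 0, -0.08 (SE 0.26, interval -0.61 to 0.46, edgeR adjusted p = 0.965) for DCP1A and -0.06 (SE 0.25, interval -0.58 to 0.46, edgeR adjusted p = 0.973) for XRN1. The intervals of DCP1A, XRN1 and LSM14B did not reach down to the fitted value of DDX6, while those of the other 6 partners did; the differences between genes were not tested.

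**Figure D2:**
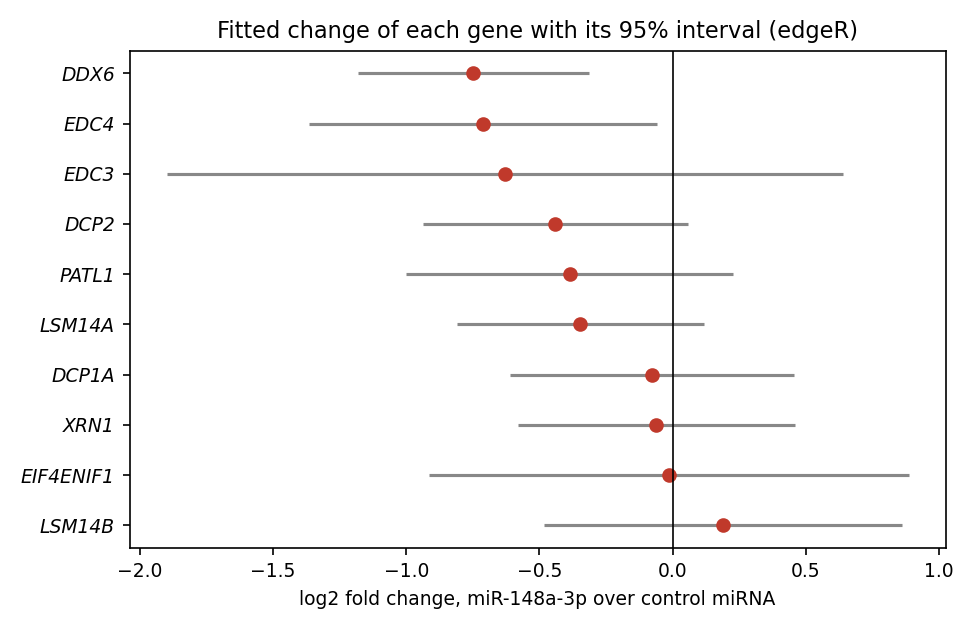
Fitted log2 fold change of each gene (point), miR-148a-3p over control miRNA, with its 95% interval from the edgeR fit (line). The intervals of DDX6 and EDC4 lie below 0 and those of the other 8 genes contain 0.

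Leaving out 1 library moved the members by different amounts. DDX6 stayed between -0.93 and -0.66, EDC4 between -0.81 and -0.54 and DCP2 between -0.61 and -0.27. LSM14A ranged from -0.45 to -0.17 and PATL1 from -0.53 to -0.21. DCP1A, XRN1 and EIF4ENIF1 crossed 0, and LSM14B came as low as 0.0065. DDX6 was lowest without miR-148a-3p replicate 2, the treated library nearest to the controls.

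**Figure D3:**
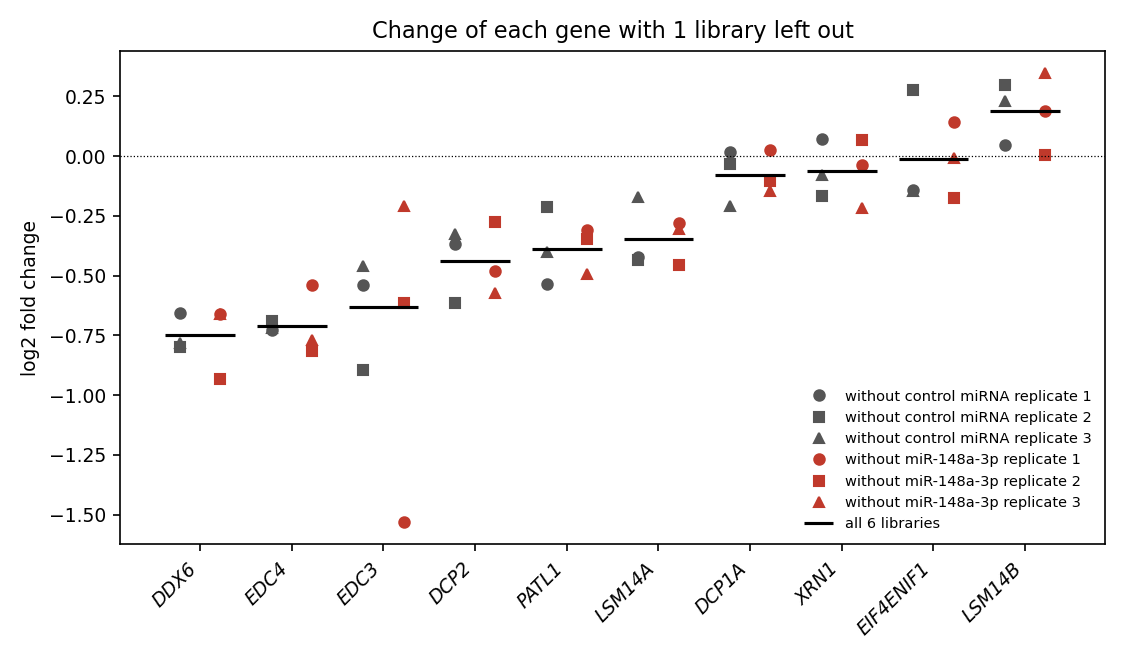
Log2 fold change of each gene from all 6 libraries (black line) and with 1 library left out (grey, a control library; red, a miR-148a-3p library; the shape gives the replicate). DDX6, EDC4, EDC3, DCP2, PATL1 and LSM14A stay below 0 throughout, and EDC3 spreads from -1.53 to -0.21.

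DDX6 had the highest mean level of the 10 messages in both groups. Its mean over all libraries, 142 CPM, was at or above that of 83.7% of the genes tested. LSM14A (104 CPM), DCP2 (94.4 CPM), XRN1 (70.3 CPM) and DCP1A (61.1 CPM) followed, then PATL1 (43.7 CPM), EDC4 (35.7 CPM), LSM14B (34.5 CPM), EIF4ENIF1 (18.6 CPM) and EDC3 (10.6 CPM). DDX6 had more reads than LSM14A in 6 of 6 libraries, and so had DCP2 than XRN1, DCP1A than PATL1 and LSM14B than EIF4ENIF1. In miR-148a-3p replicate 3, however, DCP2 was above DDX6, with 59 reads against 55. The order of LSM14A over DCP2, of XRN1 over DCP1A, of EDC4 over LSM14B and of EIF4ENIF1 over EDC3 held in 4 of 6 libraries each, and PATL1 was above EDC4 in 5 of 6. Within both groups the ranges of LSM14A and DCP2, of DCP2 and XRN1 and of XRN1 and DCP1A overlapped. Those of DDX6 and LSM14A overlapped with miR-148a-3p and not in the controls. Ranges leave out that both genes are counted in the same library, where DCP2 was above XRN1 in 6 of 6. These differences in level were not tested. EDC4 was above LSM14B in 3 of 3 control libraries, with no overlap, and in 1 of 3 with miR-148a-3p, where the ranges overlapped. EIF4ENIF1 and EDC3 overlapped in the controls and not with miR-148a-3p.

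The share of DDX6 among the reads of the 10 genes needs no scaling between libraries. It was 27.8%, 25.4% and 23.6% in the controls and 18.8%, 23.7% and 16.7% with miR-148a-3p. The 2 groups met at control replicate 3 and miR-148a-3p replicate 2, whose 95% Wilson intervals were 20.4% to 27.1% and 20.1% to 27.8%. The other 9 genes together were at 518, 487 and 545 CPM in the controls and at 409, 426 and 453 CPM with miR-148a-3p, so that the sum without DDX6 was also lower in every treated library. No test was made of this sum, since the genes were chosen with results known.

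**Figure D4:**
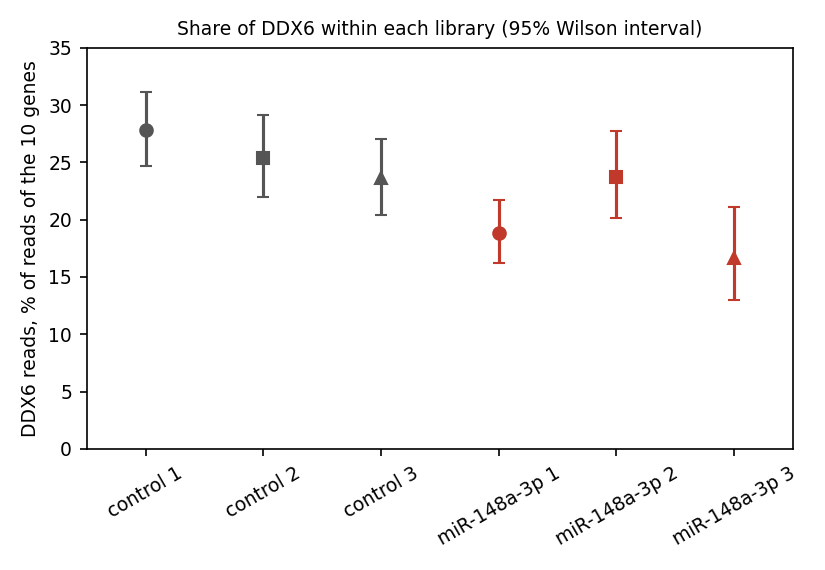
Reads of DDX6 as a percent of the reads of all 10 genes in each library (grey, control miRNA; red, miR-148a-3p), with the 95% Wilson interval, which covers counting error only. Control libraries lie between 23.6% and 27.8%, and miR-148a-3p replicate 2, at 23.7%, falls among them.

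Counts were also set against 100 reads of DDX6 in the same library. EDC4 overlapped between the groups on this scale, with 21.7, 27.5 and 25.7 reads in the controls and 22.9, 23.2 and 32.7 with miR-148a-3p. LSM14B had 13.0, 22.5 and 20.3 reads in the controls and 38.9, 34.8 and 29.1 with miR-148a-3p. DCP1A had 35.3, 40.1 and 29.7 and then 54.9, 46.4 and 72.7. EIF4ENIF1 had 10.7 ± 4.21 and 17.7 ± 2.10 reads (SD, n = 3). For these 3 of 9 partners the groups did not overlap, but so it was for 50.4% of all genes when counted per read of DDX6. XRN1 had 42.0, 36.6 and 41.2 reads in the controls and 70.1, 42.0 and 94.5 with miR-148a-3p, with an overlap at replicate 2. An exact permutation test of such a ratio cannot give a two-sided p below 0.1 with 3 libraries against 3, so none is given.

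The other genes of decapping were divided between lower and higher values. Of the 8 LSM genes, whose products LSM1 to LSM7 form the ring that binds PAT1 at the shortened tail and LSM2 to LSM8 a nuclear ring, 6 were higher and 2 lower, with a median of 0.20. LSM7 was at 69.3, 94.5 and 79.6 CPM in the controls and at 106, 98.2 and 140 CPM with miR-148a-3p, without overlap, where 6.22% of all genes were higher in that way (log2 fold change 0.49, SE 0.23, edgeR adjusted p = 0.725). LSM4 had 0.34 (SE 0.22) and LSM5 -0.28 (SE 0.28). Of 9 other genes of decapping and 5′ end decay, 8 were tested, 4 lower and 4 higher, with a median of 0.0032. DCPS, the scavenger that hydrolyses the cap left after decay from the 3′ end, was at 7.71, 22.2 and 20.5 CPM and at 29.0, 40.2 and 29.6 CPM, again without overlap (0.99, SE 0.41, edgeR adjusted p = 0.673). DCP1B, the paralog of DCP1A, had 0.86 (SE 0.54) at 8.81 ± 4.24 and 16.3 ± 4.48 CPM (SD, n = 3), and DXO, a decapping exonuclease of faulty caps, -0.41 (SE 0.50). With edgeR, DESeq2 and limma-voom 0 genes of either list passed. At an unadjusted p below 0.05 edgeR and limma-voom gave LSM7 and DCPS and DESeq2 gave DCPS. Both were higher, as were 3.4% of all genes by that measure with edgeR.

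Proteins that bring DDX6 to messages or work beside it were split. Of 23 listed RNA-binding proteins and repressors 20 were tested, 11 lower and 9 higher, with a median of -0.06. ATXN2, an RNA-binding protein that binds DDX6, was at 143, 181 and 174 CPM in the controls and at 126, 117 and 90.6 CPM with miR-148a-3p, lower in all treated libraries (-0.56, SE 0.21, edgeR adjusted p = 0.593). CNOT1, the scaffold of CCR4-NOT whose MIF4G domain activates DDX6, was at 109, 106 and 80.8 CPM and at 137, 110 and 148 CPM, higher in all treated libraries (0.41, SE 0.22, edgeR adjusted p = 0.725). GIGYF2, which joins DDX6 to the cap-binding repressor 4EHP, had 0.36 (SE 0.19). Of the 20 tested, 2 were lower and 1 higher without overlap, beside 6.59% and 6.22% of all genes. The exosome, which degrades messages from the 3′ end, had 8 of 12 genes lower and a median of -0.06, with EXOSC2 at 0.85 (SE 0.36), EXOSC1 at -0.62 (SE 0.40) and EXOSC9 at 0.39 (SE 0.21). In both lists 0 genes passed with edgeR, DESeq2 or limma-voom. At an unadjusted p below 0.05 all 3 tools gave 1 gene in each list, ATXN2 (lower) and EXOSC2 (higher). With edgeR, 3.4% of all genes were lower and 3.4% higher by that measure.

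Among DEAD-box helicases, DDX6 had the lowest fitted value of the 31 tested, ahead of DDX18 at -0.36 (SE 0.18). It was also the lowest in 13 of 14 alternatives, the exception being without miR-148a-3p replicate 3, where DDX19B was at -0.67 and DDX6 at -0.66. The 30 others had 11 lower and 19 higher values, with a median of 0.05 and a range from -0.36 to 0.65. DDX18, of ribosome assembly, was at 269, 260 and 238 CPM and at 202, 182 and 214 CPM, without overlap. DDX39A, of mRNA export, was at 73.2, 44.3 and 62.6 CPM and at 87.0, 93.5 and 105 CPM, also without overlap (0.65, SE 0.25, edgeR adjusted p = 0.616), and DDX49 had 0.63 (SE 0.33). Without overlap, 2 of the 30 were lower and 2 higher, beside 6.59% and 6.22% of all genes. None of the 30 passed with edgeR, DESeq2 or limma-voom, and DDX39A was the 1 gene at an unadjusted p below 0.05 with each. It was higher, as were 3.4% of all genes by that measure with edgeR. The difference between DDX6 and the other helicases was not tested. The members and lists were chosen with earlier results of these data known, and the alternatives reuse the same libraries. The place of DDX6 among the helicases is therefore a description only. In level DDX6 ranked 12 of the 31 in the controls and 13 over all libraries.

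**Figure D5:**
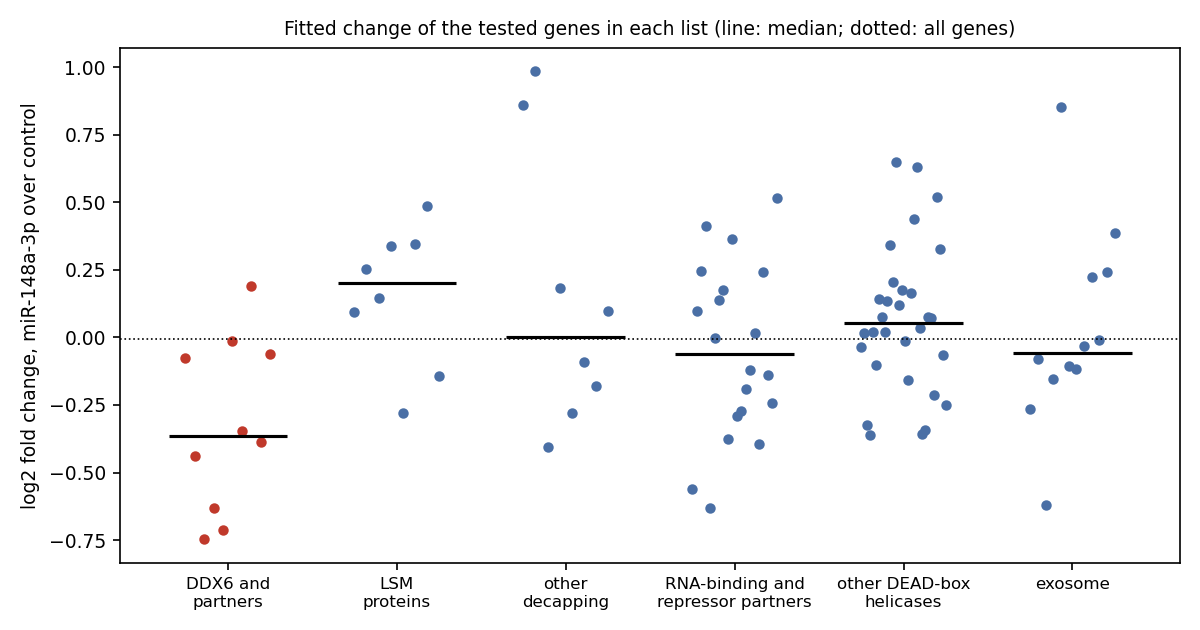
Fitted log2 fold change of each tested gene in DDX6 and its partners (red) and in 5 other lists (blue), with the median of each list (black line) and of all genes tested (dotted line). The medians are -0.37 for the 10 genes and lie between -0.06 and 0.20 for the other lists.

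The genes whose pattern over the 6 libraries was most like that of DDX6 were FZD6, MAP2K4, RABGAP1, UHMK1 and IPO8, out of 4121 tested genes with a mean of at least 50 CPM. Likeness was the root mean square difference of the centred log2 CPM values over the 6 libraries, which was 0.0832 for FZD6, 0.109 for MAP2K4, 0.113 for RABGAP1, 0.141 for UHMK1 and 0.148 for IPO8. FZD6, a frizzled receptor of Wnt ligands, was at 119, 106 and 88.7 CPM in the controls and at 56.0, 76.9 and 51.0 CPM with miR-148a-3p. Replicate 2 was its nearest treated library too, which follows from its selection by likeness to DDX6. MAP2K4, a kinase upstream of JNK, was at 80.5 ± 7.95 and 52.9 ± 8.54 CPM (SD, n = 3), and UHMK1, a serine/threonine kinase, at 199 ± 7.97 and 112 ± 19.1 CPM. Of the partners, EDC4 was the closest at 0.194 and EDC3 the farthest at 0.903.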

How the data were processed

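Per the labels' protocols, total RNA was primed with oligo-dT for 3′ end mRNA libraries. The deposited values are unnormalized read counts by gene symbol, and a symbol missing from a library's list was read as a count of 0. The tools named in the submitters' processing notes are STAR, Bowtie2 and cutadapt, with GRCh38 as the build; how reads were counted, with which annotation and strand setting, is not given in the sources used here. Counts were fitted over all genes with edgeR 4.0.16 in R 4.3.3 (TMM, filterByExpr, quasi-likelihood F test, group as the only term), with Benjamini-Hochberg adjustment over the 8921 genes tested. Standard errors and 95% intervals come from the same fit. DESeq2 1.42.0, limma-voom (limma 3.58.1), other size factors and filters, thinning, the replicate block and leaving out each library were the alternatives. The scripts were tested on simulated data. The members and lists were chosen with earlier results of these data known. The genes named are the 10 members, the 3 tested genes with the smallest p in each list, the 5 most like DDX6, DROSHA, markers, and genes overlapping a member; SENP3-EIF4A1, EIF4A1 and SENP3 were named after their values were seen. Nothing in the labels says whether replicates came from separate cultures, so p-values cover only the spread between libraries, possibly technical. Libraries of 1 group differed pairwise by 2.58 to 5.80 times what Poisson sampling gives (chi-square per degree of freedom), so none was counted as a repeat of another. Of the DDX6 pseudogenes, none had a row. Gene spans and microRNA sequences are from RefSeq, GRCh38.p14.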

Additional observations from a re-analysis of the deposited data

How the results depend on the processing

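No member passed the threshold in any of the 14 alternatives, and 131 of 139 member values kept their direction. The 8 that did not belong to EIF4ENIF1 (0.0017 after thinning to the smallest library and 0.0053 with the replicate block; -0.18 to 0.28 with 1 library left out), DCP1A (-0.21 to 0.03 with 1 library left out) and XRN1 (-0.22 to 0.07). The reversals of EIF4ENIF1 came at 0.28 without control replicate 2 and 0.14 without miR-148a-3p replicate 1, those of DCP1A at 0.018 without control replicate 1 and 0.027 without miR-148a-3p replicate 1, and those of XRN1 at 0.070 without control replicate 1 and 0.069 without miR-148a-3p replicate 2; the cause was not tested. After thinning 7 of 9 tested members were lower and with the replicate block 8 of 10, beside 7 to 9 of 10 with 1 library left out. The members' median lay between -0.39 and -0.26 with 1 library left out. Over all genes, 1 was called, and 2 with DESeq2, 3 with limma-voom, 18 without the count filter, 5 after thinning and 3 with the replicate block, none of them a member; with 1 library left out the count ran from 1 to 26 (26 without control replicate 1, 2 without miR-148a-3p replicate 3). Same-numbered libraries deviated together with correlations of 0.133, 0.0930 and -0.00185, and differently numbered ones with -0.133 to 0.0274. With 3 libraries centred in each group, these values cannot decide whether same-numbered libraries were paired. The block left DDX6 at -0.76 (edgeR adjusted p = 0.188). EDC3 was not tested after thinning. Adding pseudogene reads was not run, since no such row had reads. The order of the members by level was the same with both other size factors.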

Other observations

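The row of EIF4A1, the DEAD-box helicase of translation initiation, held 49 reads over the 6 libraries and did not pass the count filter. The readthrough gene SENP3-EIF4A1 held 616 reads and SENP3 83. The 3 rows were picked with their values in view, and whether reads of EIF4A1 were counted under the readthrough name was not tested.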
